A study of Mus musculus with 8 samples.

Results

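The genes described here make the azurophil (primary) granule or mark commitment to the neutrophil lineage, and were followed in mouse bone marrow stem and progenitor cells after interferon-α (IFNα). They are Mpo, Elane, Prtn3, Ctsg, Prss57, Ms4a3, Fcnb, S100a8, S100a9 and Cebpe. They were taken by symbol, and all 10 were found among the 27998 genes of the count tables. The samples were Lin- c-Kit+ (LK) bone marrow cells of wildtype mice aged 12 to 14 weeks, to which additional LK CD150+ CD48- CD34- hematopoietic stem cells (HSCs) had been added at sorting. Control mice received 100 µl PBS, and the other mice received recombinant murine IFNα under the skin, at a dose of 50000 IU for each 20 g of body weight, 3, 24 or 72 h before the bone marrow was taken. Each group held 4 mice whose cells carried different hashtag antibodies (short DNA barcodes read with the RNA) and were pooled in 1 droplet library, so a time point and its library cannot be told apart. A mouse was the replicate throughout, and each mouse is named by its group and its hashtag number.

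Granulocyte-monocyte progenitors that turn to the neutrophil fate first make the cargo of the primary granules, before any of the later granules form. That cargo includes myeloperoxidase (Mpo) and the serine proteases neutrophil elastase (Elane), proteinase 3 (Prtn3), cathepsin G (Ctsg) and neutrophil serine protease 4 (Prss57). Ms4a3 encodes a membrane protein used to mark cells that have passed the granulocyte-monocyte progenitor stage, and Fcnb encodes ficolin B, a lectin that recognizes microbial sugars. The transcription factor C/EBPε, encoded by Cebpe, drives the promyelocyte into the stage at which the secondary granules are filled. S100a8 and S100a9 encode the subunits of calprotectin, a calcium-binding cytosolic protein that becomes abundant as neutrophils mature. C/EBPα, PU.1 and MYB are the transcription factors best known from the regulation of the early granule genes.

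Several of the genes were neighbors in the genome. On mm10, Prss57 (chr10:79781474-79790961, minus strand), Prtn3 (chr10:79874476-79883174, plus strand) and Elane (chr10:79886247-79888215, plus strand) followed each other, with 3072 bases between Prtn3 and Elane and 83514 bases between Prss57 and Prtn3. S100a8 (chr3:90668978-90670035, plus strand) and S100a9 (chr3:90692632-90695721, minus strand) were 22596 bases apart. The others stood alone: Mpo at chr11:87793581-87804413 (plus), Ctsg at chr14:56099881-56102574 (minus), Cebpe at chr14:54710360-54712174 (minus), Ms4a3 at chr19:11629496-11640851 (minus) and Fcnb at chr2:28076378-28084885 (minus). The DNA upstream of their start sites is shown for the 3 neighboring or like-acting proteases and for both calprotectin genes, to set the motif matches of the early and the late genes side by side. The sequences are RefSeq's for GRCm38.p6, begin 250 bases before the RefSeq start and stop before the first base that lies in an annotated exon. The gene spans above come from a different annotation. For Prtn3 the RefSeq start lies inside that span, so the Prtn3 stretch is upstream of the RefSeq start but within the span. Capitals mark matches, on either strand, to the PU.1 core GAGGAA, the MYB core AACNG or the C/EBP consensus TTNNGNAA, with overlapping matches run together.
Elane (chr10:79886062-79886246, plus strand): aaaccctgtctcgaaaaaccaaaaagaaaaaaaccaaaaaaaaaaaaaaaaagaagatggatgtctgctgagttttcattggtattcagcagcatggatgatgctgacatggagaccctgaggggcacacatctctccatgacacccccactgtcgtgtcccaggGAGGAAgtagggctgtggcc
Prtn3 (chr10:79879417-79879613, plus strand): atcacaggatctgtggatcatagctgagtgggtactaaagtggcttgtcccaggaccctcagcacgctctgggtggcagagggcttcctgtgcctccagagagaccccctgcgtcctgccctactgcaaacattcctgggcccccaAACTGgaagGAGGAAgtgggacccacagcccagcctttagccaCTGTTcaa
Ctsg (chr14:56102575-56102824, minus strand): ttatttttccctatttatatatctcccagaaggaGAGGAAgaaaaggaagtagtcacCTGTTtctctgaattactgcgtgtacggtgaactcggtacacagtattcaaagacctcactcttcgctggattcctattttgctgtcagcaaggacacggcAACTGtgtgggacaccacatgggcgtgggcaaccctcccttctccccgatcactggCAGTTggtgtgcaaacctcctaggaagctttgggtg
S100a8 (chr3:90668821-90668977, plus strand): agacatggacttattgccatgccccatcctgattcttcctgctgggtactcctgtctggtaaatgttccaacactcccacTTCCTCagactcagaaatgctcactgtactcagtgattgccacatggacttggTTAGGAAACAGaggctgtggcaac
S100a9 (chr3:90695722-90695971, minus strand): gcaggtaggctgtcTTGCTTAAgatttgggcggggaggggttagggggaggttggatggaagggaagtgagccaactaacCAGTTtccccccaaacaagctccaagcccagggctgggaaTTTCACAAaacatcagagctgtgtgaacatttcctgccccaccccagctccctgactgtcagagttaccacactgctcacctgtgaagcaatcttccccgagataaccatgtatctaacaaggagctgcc
Upstream sequence was found for 8 of the 10 genes, the others being Prss57 and Cebpe. In the 250 bases before the start, the PU.1 core was present in 5 of the 8 (23.1% of 27025 mouse promoters of the same length), the MYB core in 7 of the 8 (74.1% of promoters) and the C/EBP consensus in 4 of the 8 (36.9% of promoters). The C/EBP letters lay upstream of Ms4a3, Fcnb, S100a8 and S100a9, and the PU.1 letters upstream of Mpo, Elane, Prtn3, Ctsg and S100a8. All 250 bases were counted, also those past the ends of the printed sequences. The MYB matches of Elane (-50 and -20 from the start), 1 of Prtn3 (-55) and 1 PU.1 match of S100a8 (-36) are therefore not shown in full. All of these are matches of letters, not measured binding sites.

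After removal of hashtag doublets and negatives, barcodes with over 5% mitochondrial UMIs (unique molecular identifiers, counted transcripts) and barcodes under 700 detected genes, 10046 cells remained. The control library kept 2474 of them (median depth 18964 UMIs per cell), the 3 h library 1661 (12017 UMIs), the 24 h library 3462 (18953 UMIs) and the 72 h library 2449 (14763 UMIs). The summed depth per mouse ranged from 1102706 to 26446327 UMIs. Control mouse 4 had 58 cells and every other mouse at least 330, so its values are the least precise. It was also the lowest of the control mice for all 10 genes. Only 3 barcodes were shared by 2 libraries. Of 9 markers of mature neutrophils, Lcn2 (792 UMIs, 14.3 CPM), Cxcr2 (302 UMIs) and Chil3 (244 UMIs) were highest in the control library, while Ltf had 7 UMIs there and Ly6g 1. Ly6g was at 0 at each later time point. The summed level of the 9 markers was 13.6 to 30.5 CPM (each gene's UMIs scaled to a common total per mouse) in the control mice, 8.53 to 14.5 at 3 h, 13.7 to 18.7 at 24 h and 10.6 to 13.9 at 72 h, and its part in the results below was not tested.

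In the control mice every gene but Cebpe had its highest level in 1 group of cells. Control cells were clustered without the 10 genes and without other neutrophil genes, which left 474 variable genes, and 14 clusters resulted. Cluster 1 (324 control cells at the depth used for shares of cells) was led by S100a8, Elane, Pglyrp1, Wfdc21 and S100a9, and, outside the neutrophil genes, by Rgcc, Gstm1 and Trem3. Together with cluster 2 (led by Ms4a6c and Irf8) and cluster 5 (led by F13a1 and Ly86) it made up the myeloid progenitor-like class, although in clusters 2 and 5 the monocyte marker list scored higher than the myeloid progenitor list. The myeloid progenitor list held Mpo, Elane and Prtn3, and neutrophil genes left out of the clustering such as Cebpa and Gfi1. The name of the class was therefore not independent of the genes described here. In control cluster 1, Mpo, Elane, Prtn3 and Ctsg were each expressed by 100% of the cells, Ms4a3 by 99.1%, Cebpe by 65.4%, Prss57 by 53.1%, S100a8 by 35.2%, S100a9 by 7.41% and Fcnb by 1.54%. A cell was counted as expressing with at least 2 UMIs of the gene (1 for Ms4a3 and Cebpe) after every cell had been thinned to 5000 UMIs. Mpo, Elane, Prtn3 and Ctsg were thus seen in every cell of the cluster, Prss57 in a part of it and S100a8 in a minority. Cluster 2 held the same proteases at lower shares: Elane was expressed by 72.6% and Mpo by 96.2% of its control cells, but S100a8 by 0.347%. In cluster 5, 89.9% of cells expressed Elane and 1.06% S100a8. These differences between clusters describe how the genes lie over the progenitors and were not tested.

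**Figure D1:**
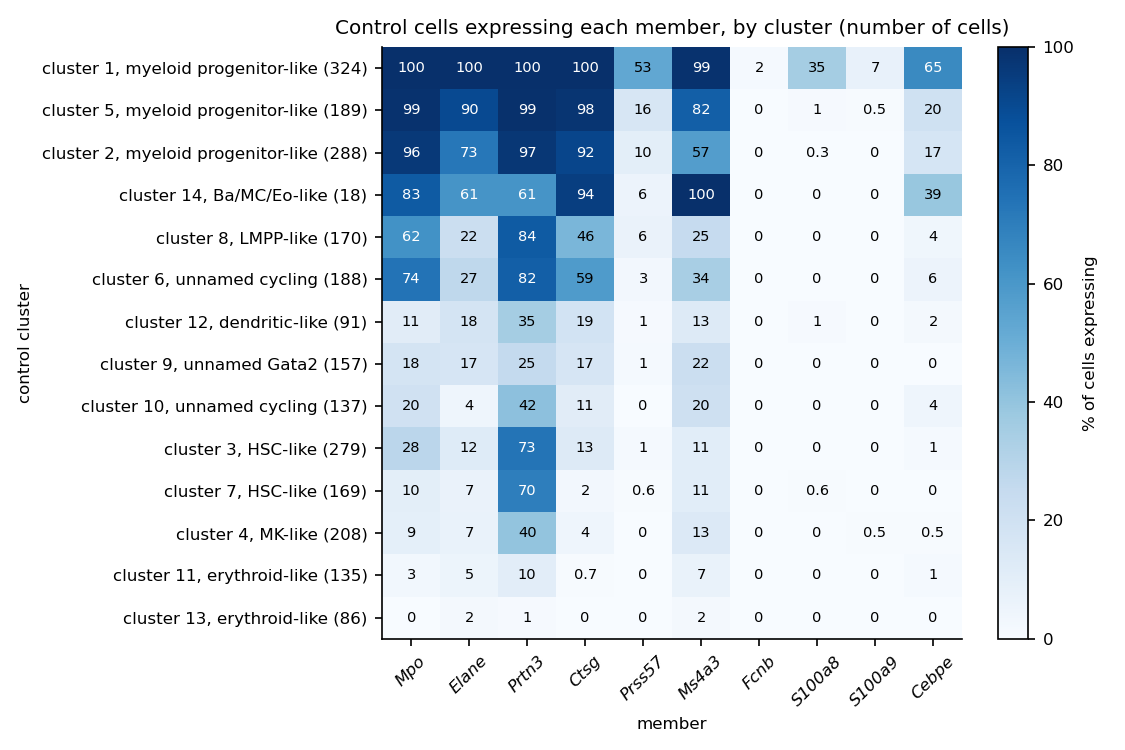
Share of control cells (percent, thinned to 5000 UMIs) that express each of the 10 genes, by cluster. Mpo, Elane, Prtn3 and Ctsg reach 100% in cluster 1, where S100a8 reaches 35.2% and Fcnb 1.54%.

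Low shares elsewhere have to be read against free RNA in the droplets. In control erythroid-like cells, which should lack the gene, 4.07% of 221 cells expressed Elane (median depth 30536 UMIs per cell) and in megakaryocyte (MK)-like cells 6.73% of 208 (13922 UMIs), so shares of this size were read as background. S100a8 was expressed by 0 of the 221 erythroid-like cells and 0 of the 208 MK-like cells. Prtn3 was expressed by 72.1% of HSC-like, 39.9% of MK-like and 6.79% of erythroid-like control cells, and Elane by 10.0% of the HSC-like cells (median depth 11198 UMIs). In LMPP-like cells (lymphoid-primed multipotent progenitors), 62.4% expressed Mpo and 22.4% Elane.

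By edgeR's quasi-likelihood test, 9 of the 10 genes were lower in the LK compartment at 3 h after IFNα, and 10 were lower at 24 h and at 72 h, where 19.2%, 13.8% and 18.5% of all 12042 tested genes were lower. The gene that did not pass at 3 h was S100a8, and by DESeq2 S100a9 did not pass either. Over all kept cells of a mouse, Elane was at 5538, 5795, 5184 and 3712 normalised CPM in the control mice, 3195, 2147, 2166 and 2589 at 3 h, 2688, 2092, 2478 and 2930 at 24 h, and 2189, 1895, 2652 and 2061 at 72 h. Every control mouse was above every treated mouse. The mean was 5057 ± 931 (SD, n = 4) in control and 2524 ± 492, 2547 ± 355 and 2199 ± 325 at 3, 24 and 72 h. The log2 fold change of Elane was -1.01 ± 0.13 (SE) at 3 h, -1.0 at 24 h and -1.21 at 72 h (edgeR's quasi-likelihood test, Benjamini-Hochberg adjusted p = 1.75e-06, 6.45e-06 and 3.40e-07).

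The other proteases and Mpo followed the same course. Mpo was at 3547, 3919, 3483 and 2958 CPM in control, 2444, 1626, 1884 and 2206 at 3 h, 2441, 2182, 2286 and 2697 at 24 h, and 1870, 1874, 2272 and 1974 at 72 h. For Mpo, too, the control mice lay above all others without overlap, with log2 fold changes of -0.77, -0.54 and -0.80. Prtn3 ranged from 3760 to 4897 CPM in control, 2028 to 3175 at 3 h, 2343 to 2979 at 24 h and 2042 to 2647 at 72 h, with no overlap and log2 fold changes of -0.76, -0.76 and -0.94. Ctsg ranged from 1624 to 2346 CPM in control and from 961 to 1428, 1241 to 1652 and 1023 to 1338 at 3, 24 and 72 h. The groups touched at 24 h, where mouse 4 (1652) was just above control mouse 4 (1624), and the log2 fold changes of Ctsg were -0.84, -0.59 and -0.87. Prss57 changed by -1.02, -0.71 and -1.13 (log2), and its means were 107 ± 31.2 CPM in control and 57.5 ± 11.6, 71.2 ± 10.9 and 52.9 ± 5.96 (SD, n = 4 each), and control mouse 4 (61.8) lay within the 3 h and 24 h ranges.

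Ms4a3, the granulocyte-monocyte lineage marker, was at 613, 680, 579 and 412 CPM in control, 511, 266, 321 and 407 at 3 h, 351, 296, 307 and 410 at 24 h, and 288, 243, 340 and 279 at 72 h. Only at 3 h did a treated mouse (mouse 1, 511) lie above a control mouse. Its log2 fold changes were -0.64, -0.78 and -1.03. Cebpe, which encodes the promyelocyte factor, was at 68.0, 91.0, 82.5 and 53.1 CPM in control, 48.1, 33.8, 30.1 and 43.0 at 3 h, 52.9, 32.7, 35.8 and 50.3 at 24 h, and 29.1, 28.7, 37.1 and 33.9 at 72 h. No treated mouse reached the lowest control mouse, although 24 h mouse 1 came close to it. The log2 fold changes of Cebpe were -1.04 ± 0.16, -0.88 and -1.28.

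Fcnb and S100a9, the genes of lowest level, moved most on the log scale. Fcnb, the ficolin gene, was at 6.84, 7.04, 6.44 and 1.74 CPM in control, 1.97, 0.872, 0.506 and 0.594 at 3 h, 1.62, 0.553, 0.269 and 1.76 at 24 h, and 1.25, 1.57, 1.52 and 2.04 at 72 h. Control mouse 4 lay inside the treated ranges and the other 3 control mice far above them, with log2 fold changes of -2.83 ± 0.43, -2.65 ± 0.31 and -2.04 ± 0.32. S100a9 was at 21.6, 28.7, 49.4 and 9.57 CPM in control, 2.41, 36.0, 7.97 and 4.95 at 3 h, 5.44, 4.02, 1.68 and 5.88 at 24 h, and 6.27, 3.26, 3.49 and 5.44 at 72 h. The 24 h and 72 h mice were all under the lowest control mouse, but 3 h mouse 2 was above 3 of the 4 control mice. S100a9 changed by -1.38 ± 0.44, -2.88 ± 0.41 and -2.75 ± 0.45 (log2, edgeR adjusted p = 0.0159, 1.83e-05 and 5.82e-05), and without 1 of control mouse 3, 3 h mouse 1, 3 h mouse 3 or 3 h mouse 4 the 3 h value missed the threshold (adjusted p 0.0559 to 0.113).

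S100a8, the other calprotectin gene, was at 174, 169, 226 and 76.6 CPM in control, 68.0, 210, 88.6 and 17.0 at 3 h, 44.5, 35.2, 15.1 and 55.6 at 24 h, and 58.1, 61.4, 58.3 and 44.4 at 72 h. The 24 h and 72 h mice did not overlap with control, while 3 h mice 2 and 3 lay above control mouse 4. The log2 fold change of S100a8 was -0.89 ± 0.39 at 3 h (edgeR adjusted p = 0.0724), -2.21 ± 0.38 at 24 h (0.000150) and -1.66 ± 0.38 at 72 h (0.00159). In 3 h mouse 2, 1 cell held 884 of the 963 S100a8 UMIs (91.8%), and the S100a8 level of that mouse before TMM scaling fell from 196 to 16.2 CPM without that cell. Without this mouse the 3 h change of S100a8 was -1.56 with an edgeR adjusted p of 0.00146. In control mouse 4, 1 cell likewise held 66 of 88 S100a8 UMIs (75%). Without that mouse the change at 3 h was -1.0 (edgeR adjusted p 0.0460). In 3 h mouse 3, 1 cell held 389 of 701 (55.5%), and without that cell its level fell from 82.0 to 36.6 CPM before TMM scaling. The 5 richest cells of a mouse held 31% to 97.7% of its S100a8 UMIs in control. They held 66.3% to 98.0% at 3 h, 49.1% to 73.9% at 24 h and 80.7% to 93.2% at 72 h. The part of these few cells in the S100a8 changes was not tested.

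**Figure D2:**
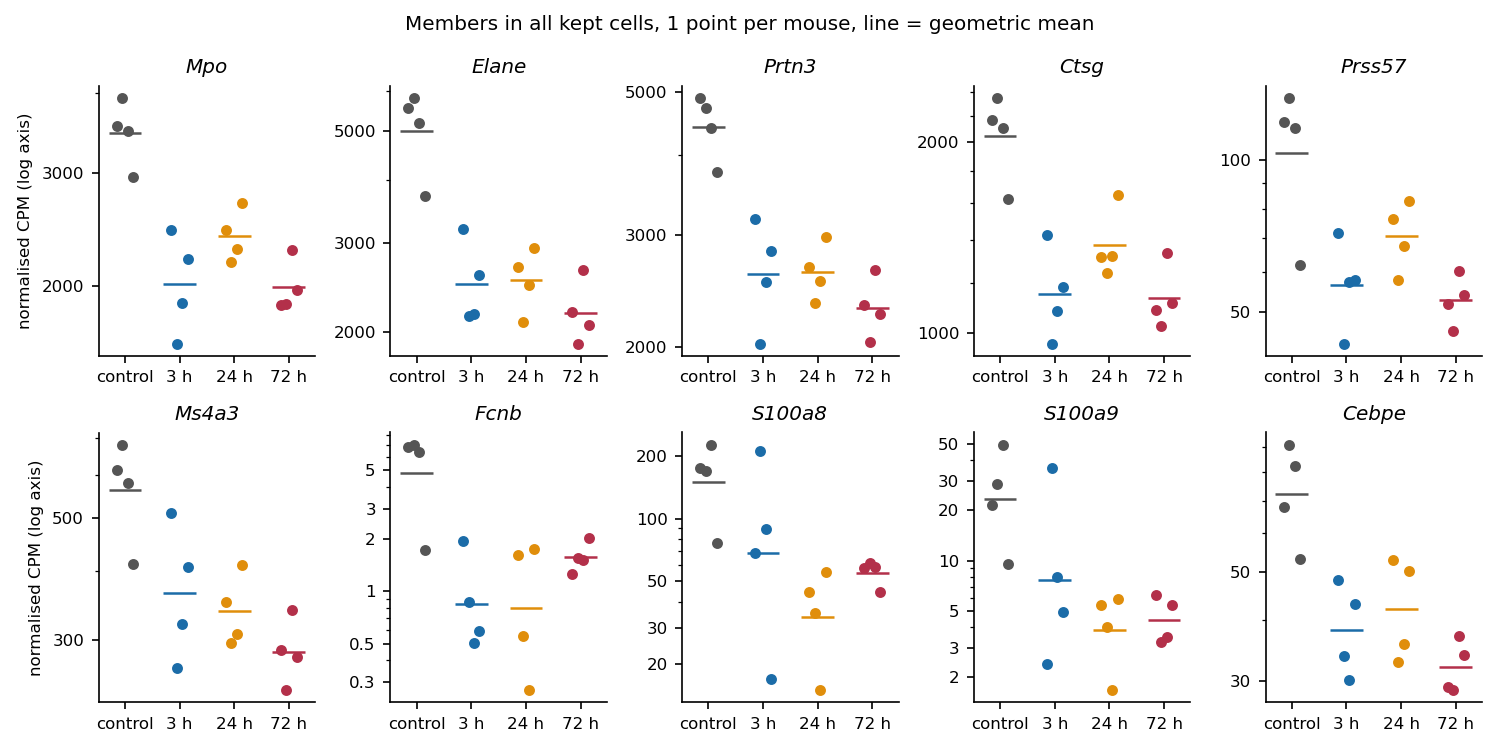
Normalised CPM over all kept cells (log axis) of each of the 10 genes, 1 point per mouse and a line at the geometric mean, for control, 3 h, 24 h and 72 h. Elane separates all 4 control mice (3712 to 5795) from the 12 treated mice (1895 to 3195), whereas at 3 h mice 2 and 3 lie within the control range for S100a8 and mouse 2 does for S100a9.

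The median log2 fold change of the 10 was -0.95, -0.83 and -1.17, at 3, 24 and 72 h, against -0.03, 0.00 and 0.02 over all tested genes. None rose. Between treated time points little moved: from 3 to 24 h, S100a8 (-1.32 ± 0.41, adjusted p = 0.0172) and S100a9 (-1.49 ± 0.54, adjusted p = 0.0421) were lower by edgeR, where 16.3% of tested genes were lower, and neither was called by DESeq2. Both calls were lost without 3 h mouse 2 (S100a8 -0.66, edgeR adjusted p 0.204, and S100a9 -0.37, adjusted p 0.650). Both were also lost without 24 h mouse 3 (-1.08 and -1.28, edgeR adjusted p 0.0511 and 0.0896). The S100a9 call was lost without 24 h mouse 2 as well (-1.44, edgeR adjusted p 0.0807). From 24 to 72 h Prss57 alone was lower (-0.42 ± 0.13, edgeR adjusted p = 0.0490, not called by DESeq2 or the likelihood ratio test, where 5.38% of tested genes were lower), and this call was lost without any 1 of 10 of the 16 mice (-0.44 to -0.33, adjusted p 0.0567 to 0.180).

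Because cells were read singly, the fall could be separated into fewer expressing cells and fewer transcripts per expressing cell. Both took part for Elane. The share of expressing cells carried most of the change for Prss57, Cebpe, S100a8 and S100a9. The level per expressing cell carried most of it for Prtn3 and Mpo. For Prss57 and Cebpe the control level, 2.91 and 2.08 UMIs, was close to the least count for an expressing cell (2 and 1). Their level could hardly fall, so fewer expressing cells cannot be told from fewer transcripts there. A level is a mean over the expressing cells of every cluster, so it can also fall where cells of high level become fewer. Elane-expressing cells were 38.4%, 38.4%, 37.0% and 28.1% of cells in the control mice, 24.3%, 18.8%, 18.3% and 22.2% at 3 h, 25.7%, 22.7%, 22.7% and 26.4% at 24 h, and 21.2%, 19.3%, 23.9% and 20.3% at 72 h. The groups did not overlap, although control mouse 4 was close to the highest 24 h mouse. The mean share was 35.5% ± 4.97 in control and 20.9% ± 2.87, 24.4% ± 1.93 and 21.2% ± 1.99 afterwards (SD, n = 4, exact permutation adjusted p = 0.0390 for each). Without thinning the mean shares of Elane were 53.2%, 26.5%, 37.8% and 29.1%. Over an Elane-expressing cell, the mean was 48.8, 49.8, 44.9 and 54.2 UMIs of 5000 in the control mice, 36.0, 33.4, 29.8 and 29.5 at 3 h, 33.9, 28.2, 34.4 and 35.2 at 24 h, and 30.2, 28.7, 35 and 30.7 at 72 h. No treated mouse reached the control range, and the log2 contributions of share and level were -0.76 and -0.60 at 3 h, -0.54 and -0.57 at 24 h, and -0.74 and -0.65 at 72 h.

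For Mpo the mean share went from 49.0% ± 3.62 to 38% ± 5.67 at 3 h and 37.7% ± 3.19 at 72 h, with 41.4% ± 3.53 at 24 h not passing (exact permutation adjusted p = 0.0686, n = 4). Its level per expressing cell went from 26.7 UMIs to 16.1, 19.8 and 17.9, a larger log2 contribution (-0.72, -0.42 and -0.57) than that of the share (-0.37, -0.24 and -0.38). Prtn3 was the most lopsided in that direction: the share of Prtn3-expressing cells was 66.1% ± 3.74 in control and 55.7%, 62.3% and 58.4% afterwards, and only the 3 h share passed. The level of Prtn3 fell from 24.6 to 14.2, 15 and 13.8 UMIs per expressing cell, so that level contributed -0.77, -0.71 and -0.82 and share -0.25, -0.09 and -0.18. Ctsg was divided more evenly, with 44.0% of cells and 16.7 UMIs in control against 30.7% and 11, 36.0% and 13.2, and 31.1% and 12.2.

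Prss57 was expressed by 10.5%, 11%, 10.5% and 5.26% of cells in the control mice, 5.23%, 2.05%, 3.89% and 3.21% at 3 h, 6.80%, 3.88%, 6.31% and 5.63% at 24 h, and 4.16%, 2.31%, 3.71% and 4.24% at 72 h. Control mouse 4 bordered on the treated mice and was passed by 3 of the 4 mice at 24 h. The share of Prss57 contributed -1.37, -0.72 and -1.37 on the log2 scale and its level -0.31, -0.21 and -0.18. In control the expressing cells held 69.3% of the Prss57 UMIs, at 2.91 UMIs per expressing cell, so the level had little room to fall. Cebpe-expressing cells went from 13.1% to 6.48%, 8.57% and 5.96%, with the 24 h value not passing (exact permutation adjusted p = 0.0686, n = 4). Ms4a3-expressing cells went from 37.7% to 26.2%, 28.8% and 25.6%, all passing.

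S100a8-expressing cells also became fewer. They were 4.90%, 5.56%, 4.19% and 5.26% of cells in the control mice, 2.15%, 0.880%, 0.677% and 0.583% at 3 h, 0.995%, 1.29%, 1.03% and 1.77% at 24 h, and 1.21%, 0.840%, 1.69% and 1.41% at 72 h. Every control mouse was above every treated mouse, 3 h mouse 2 included. The mean share of S100a8 went from 4.98% ± 0.591 to 1.07% ± 0.731, 1.27% ± 0.357 and 1.29% ± 0.357 (SD, n = 4, exact permutation adjusted p = 0.0390 each). The level per S100a8-expressing cell was 12.5 UMIs in control, 7.75 at 24 h and 11.2 at 72 h, and neither time passed (exact permutation adjusted p = 0.104 and 0.5). At 3 h, 1 mouse had the 5 expressing cells that a level required. S100a9-expressing cells fell from 1.23% ± 0.378 to 0.466%, 0.200% and 0.162%, and no treated mouse had enough of them for a level. Cells with at least 2 UMIs of Fcnb after thinning numbered 5 of 2439, 0 of 1600, 3 of 3427 and 0 of 2381. The counts of 0 allowed up to 0.1875% of such cells at 3 h and 0.126% at 72 h. In control they held only 21.9% of the Fcnb UMIs, so these limits say nothing of cells with 1 UMI, and a change in the share was not detectable at this depth.

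**Figure D3:**
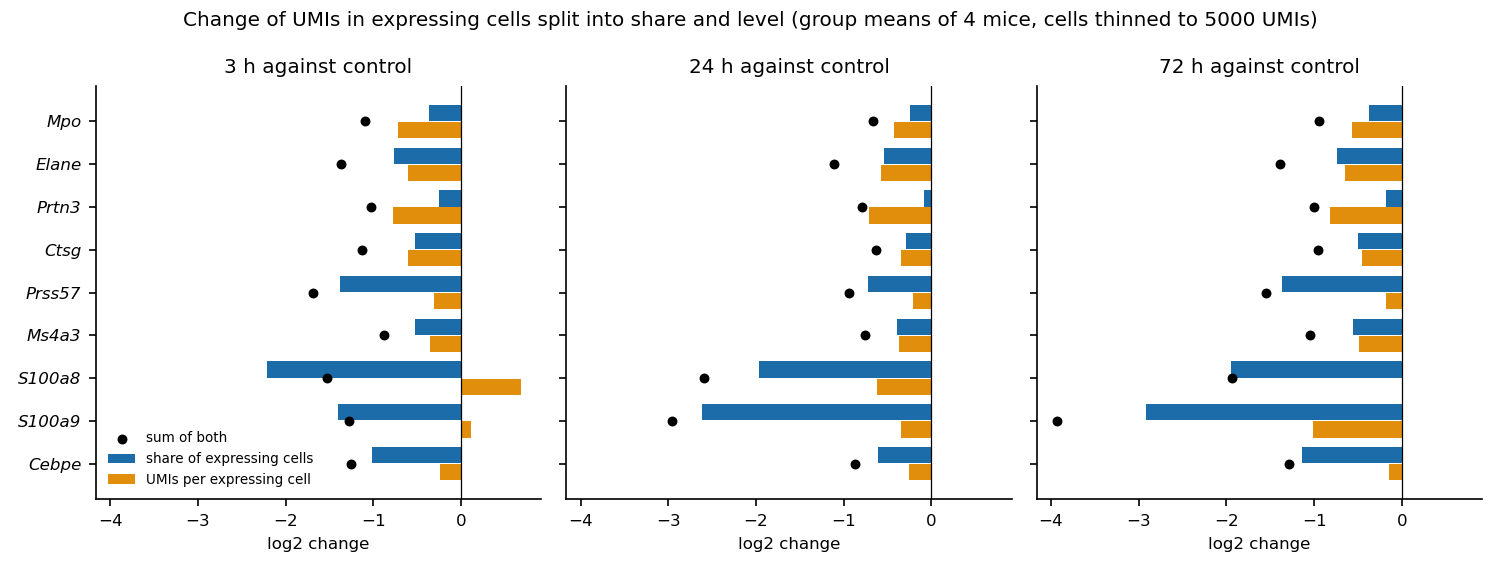
Log2 change against control of the share of expressing cells and of the UMIs per expressing cell (bars, group means of 4 mice) and their sum (points), at 3, 24 and 72 h for 9 genes, Fcnb having too few expressing cells. For Elane the 2 parts are alike (-0.76 and -0.60 at 3 h) and for Prtn3 the level is larger (-0.77 against -0.25). For S100a8 at 3 h the share (-2.21) goes beyond the sum (-1.53), the level being 0.68 above control. That level rests on 16 expressing cells, with 3 h mice 1 to 4 at 10.3, 55, 24.25 and 2 UMIs per expressing cell, and was not tested.

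Counted over the genes, the share of expressing cells was lower for 9, 5 and 8 of the 10 at 3, 24 and 72 h (exact permutation tests adjusted over 30 values). The level per expressing cell was lower for 5, 6 and 5, adjusted over the fewer values that could be tested. Fcnb and S100a9 had no level test at any time, and S100a8 had none at 3 h. Shares and levels were tested for the 10 genes alone, so no share over all genes stands beside these counts. With 4 mice against 4 the smallest p is 0.0286, so these counts hang on few mice: without 3 h mouse 2 or 3 h mouse 3, 0 shares passed at any time (the smallest adjusted p was 0.0504), without control mouse 4 the count at 24 h was 9, without 3 h mouse 4 it was 5 at 3 h, and without 72 h mouse 1, 2 or 4 it was 5 at 72 h. The HSCs added at sorting sit in the denominator of every share, and HSC-like cells were 19.4% of cells in control and 34.0%, 25.7% and 32.5% afterwards. With HSC-like cells left out, a check chosen after seeing the data, the shares were lower for 9, 7 and 8 genes, the levels for 5, 6 and 5, and the whole-compartment calls stayed at 9, 10 and 10. Elane-expressing cells were then 42.1% in control and 30.2%, 30.7% and 29.4% afterwards, and the log2 fold changes of Elane were -0.80, -0.90 and -1.0.

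Cluster 1 became a smaller part of the kept cells and of the myeloid progenitor-like class as well. Trem3, among the genes that led cluster 1, followed Elane over the control clusters (Pearson's r 0.992). A cell in which the program fell could therefore be labelled as another cluster. Fewer cells and relabelled cells cannot be told apart by these shares. Cluster 1 was 13.8%, 13.2%, 12.4% and 12.1% of all kept cells in the control mice, 8.48%, 3.55%, 3.59% and 4.55% at 3 h, 8.16%, 5.73%, 7.07% and 8.84% at 24 h, and 5.29%, 3.48%, 5.88% and 4.54% at 72 h. No treated mouse came near the control mice. The means were 12.9% ± 0.787 in control and 5.04% ± 2.34, 7.45% ± 1.36 and 4.80% ± 1.04 (SD, n = 4, exact permutation p = 0.0286 each, 0.0923 after adjustment over all clusters and times). As a part of a mouse's own myeloid progenitor-like cells, which does not depend on the added HSCs, cluster 1 was 41.0%, 40.1%, 40.2% and 41.2% in control, 33.3%, 20.3%, 16.7% and 17.0% at 3 h, 25.6%, 22.5%, 29.3% and 30.5% at 24 h, and 27.7%, 17.5%, 24.2% and 24.8% at 72 h. The control mice lay close together and above all treated mice (means 40.6% ± 0.567, then 21.8% ± 7.84, 27.0% ± 3.64 and 23.5% ± 4.30, exact permutation p = 0.0286 each, n = 4). This share was also computed after seeing the data, and without any 1 control mouse its 3 h difference of -18.6 to -18.9 percentage points had an exact p of 0.0571. Cluster 5 went from 7.88% to 2.43%, 3.45% and 2.17% of kept cells (exact permutation p = 0.0286 each, n = 4, adjusted 0.0923), and cluster 2 was at 10.9%, 15.3%, 16.7% and 13.4% (p = 0.0571, 0.0571 and 0.143).

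**Figure D4:**
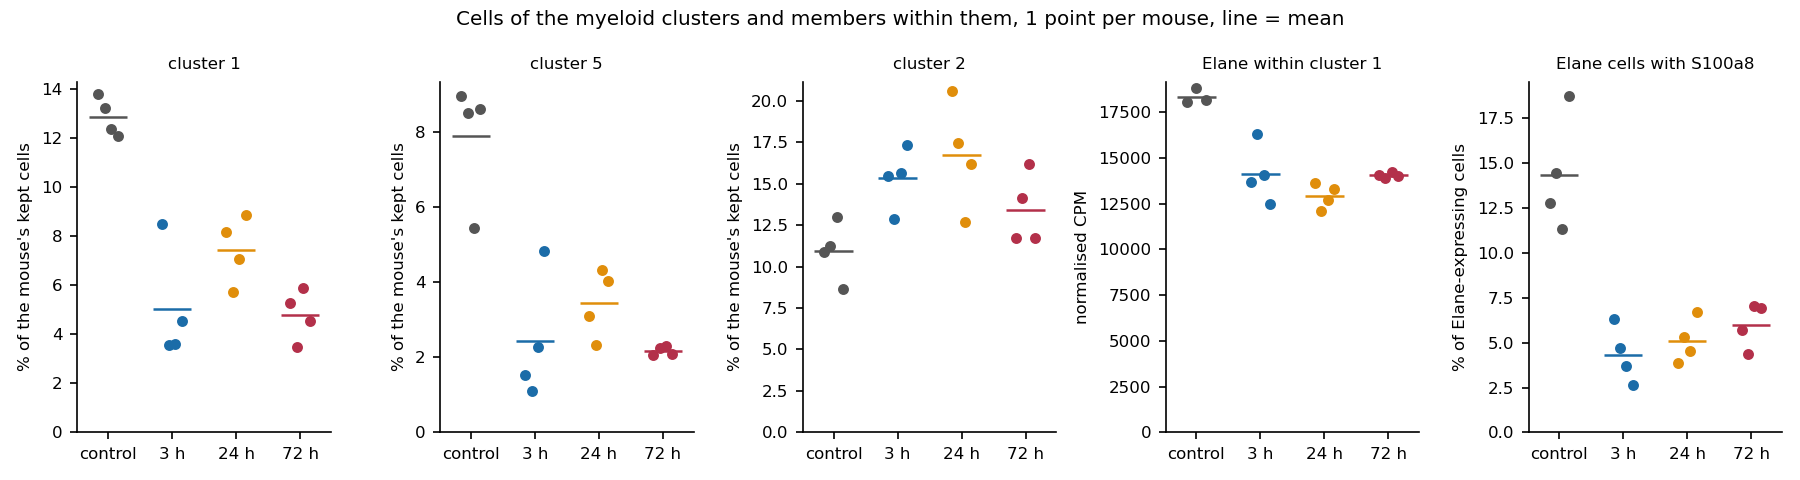
Percent of each mouse's kept cells in clusters 1, 5 and 2, normalised CPM of Elane in cluster 1, and percent of Elane-expressing cells that also express S100a8, with 1 point per mouse and a line at the group mean. Cluster 1 is at 12.1% to 13.8% in the control mice and at 3.48% to 8.84% in the 12 treated mice, and 11.3% to 18.8% of Elane-expressing cells express S100a8 in control against 2.63% to 7.04% afterwards.

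Within cluster 1 the genes were lower too, by less than in the whole compartment. Control mouse 4 had fewer than 10 cells there and is absent. Elane in cluster 1 was at 18069, 18840 and 18138 CPM in control, 13695, 16324, 14044 and 12458 at 3 h, 13640, 12124, 12685 and 13304 at 24 h, and 14072, 13915, 14242 and 14004 at 72 h. All treated mice were below all control mice, and the log2 fold changes of Elane were -0.31 ± 0.05, -0.48 ± 0.05 and -0.34 ± 0.05 (edgeR adjusted p = 5.87e-06, 6.80e-10 and 2.03e-06). Elane was still expressed by 100% of cluster 1 cells at 3 h and 72 h and 99.2% at 24 h, at 91.2 UMIs per cell in control and 68.8, 64.1 and 68.2 afterwards. These mean levels lay far above the least count for an expressing cell, so the share could hardly register a fall in level of this size. It also says nothing of cells placed in other clusters. By edgeR, 7, 10 and 7 of the 10 genes were lower in cluster 1 at 3, 24 and 72 h, where 4.21%, 3.11% and 2.58% of 8143 tested genes were.

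Prtn3 in cluster 1 changed by -0.34, -0.44 and -0.31, Ctsg by -0.34, -0.25 and -0.23, and Prss57 by -0.48, -0.45 and -0.34 on the log2 scale, all passing. Mpo changed by -0.27, -0.13 and -0.17 and Cebpe by -0.34, -0.38 and -0.41, also passing at each time. Ms4a3 passed at 24 h (-0.34) and not at 3 h (-0.15, edgeR adjusted p = 0.129) or 72 h (-0.17, 0.119). Fcnb passed at 3 h (-1.72) and 24 h (-1.92). So in cluster 1 Mpo, the 4 serine proteases and Cebpe were lower at all 3 times, and Ms4a3 and Fcnb at some. Among these the Cebpe call at 3 h was lost without control mouse 2 or without 3 h mouse 1, 2 or 3 (edgeR adjusted p 0.0551 to 0.0989), and the Mpo call at 24 h without control mouse 2 or without 24 h mouse 1 or 2 (0.0507 to 0.154). Ms4a3 gained a call at 3 h without 3 h mouse 1 (-0.24) and at 72 h without 72 h mouse 4 (-0.21), and Fcnb at 72 h without 24 h mouse 1 or 3 or 72 h mouse 4 (-0.96 without the last).

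S100a8 in cluster 1 was at 813, 701 and 1148 CPM in control, 403, 3040, 1128 and 143 at 3 h, 333, 342, 95.8 and 362 at 24 h, and 608, 977, 548 and 541 at 72 h. Control and 24 h mice did not overlap, whereas the 3 h mice ran from far below to far above control, with 3 h mouse 2 highest. The log2 fold changes of S100a8 were 0.34 (edgeR adjusted p = 0.654), -1.60 ± 0.36 (0.00203) and -0.41 (0.630), and without 3 h mouse 2 the 3 h value was -0.57. S100a9 changed by -0.38 (0.733), -2.44 (0.000260) and -1.76 (0.0375), with -2.10 at 3 h without 3 h mouse 2 (0.0122), and the S100a9 call at 72 h was lost without control mouse 3 (-1.09) or without any 1 of the 72 h mice. DESeq2 did not call S100a8 or S100a9 in cluster 1 at 24 h (adjusted p 0.271 and 0.409). The share of cluster 1 cells that expressed S100a8 was 35.2% before treatment and 16.5%, 15.9% and 25% at the 3 times after it.

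Outside cluster 1 fewer of the genes could be tested. In cluster 2, 5, 5 and 3 of 7 tested genes were lower by edgeR (6.52%, 3.35% and 2.75% of all tested genes were), Elane by -0.50, -0.69 and -0.35 and Prtn3 by -0.14, -0.42 and -0.20 on the log2 scale. Without control mouse 2, the 72 h value of Elane in cluster 2 was -0.14 and not called. The Prss57 call at 3 h there and the Ctsg call at 72 h were each lost without any of several mice, and the count of lower genes in cluster 2 ran from 3 to 5 at 3 h and from 1 to 5 at 72 h. Cluster 5 could not be tested, since only 2 mice had 10 cells at 3 h. Over the whole myeloid progenitor-like class, cluster 1 included, 8, 10 and 10 of the 10 genes were lower (13.3%, 9.44% and 8.97% of tested genes). The share of Elane-expressing cells in the class went from 87.8% to 73.9%, 71.9% and 78.1%. Cluster 1 itself went from 40.6% of the class to 21.8%, 27.0% and 23.5%. The class values thus mix this shift with changes inside the clusters, and the 2 were not separated here.

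In LMPP-like cells, edgeR called Prtn3 at 3 h (-0.69) and Prtn3 (-0.63) and Ctsg (-0.75) at 24 h, of 7 tested, and 0 at 72 h, where 0 also had an unadjusted p under 0.05 (2.28%, 0.946% and 0.522% of all tested genes were lower); DESeq2 called 0 at each time, and the 24 h calls were lost without control mouse 1 (Prtn3 -0.48, Ctsg -0.56) or without 24 h mouse 2 or 4. In HSC-like cells 0, 0 and 1 of 7 were called, Prss57 at 72 h (-0.86, and -0.65 and not called without control mouse 3), with 3, 0 and 3 at an unadjusted p under 0.05 and 0 by DESeq2 (8.62%, 1.84% and 2.45% of tested genes were lower). In MK-like cells Elane (-1.05, -0.86 and -1.18) and Prtn3 (-0.62, -0.53 and -0.79) passed at each time and Mpo and Ctsg at 72 h, of 5 tested, although Prtn3 at 24 h (-0.48 without control mouse 1), Ctsg at 72 h (-0.93 without control mouse 2) and Mpo at 72 h (-0.66 without 72 h mouse 1) each lost the call without 1 mouse (1.61%, 0.729% and 1.54% of tested genes were lower). The Elane level of these MK-like cells in control was 0.356 UMIs per cell of 5000, beside 0.235 in erythroid-like cells, and the part of free RNA in these calls was not tested. In erythroid-like cells edgeR called 0 of 6 at each time, with 0, 3 and 0 at an unadjusted p under 0.05 and 0 called by DESeq2 (4.11%, 3.88% and 1.66% of tested genes were lower). The unadjusted counts carry no direction. The median log2 fold change of the tested genes in erythroid-like cells was -0.97, 1.30 and 0.67 at 3, 24 and 72 h, so at 24 and 72 h it lay above control. In HSC-like cells the median was 0.13, -0.07 and -0.02. Whether the change differed between myeloid progenitor-like and LMPP-like cells could not be settled: with 3 control mice the smallest exact permutation p was 0.0286, which passes an adjustment over 30 differences only where most of them reach it, and 5 did, so 0 of 30 passed.

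The mix of clusters and the level within clusters were then set side by side. With each cluster held at its control level and only the cluster shares of each time point applied, the median log2 change of the 10 genes was -0.84, -0.48 and -0.94 at 3, 24 and 72 h. With the control shares kept and only the levels within clusters applied, it was -0.41, -0.50 and -0.40. The observed medians on the same cells were -1.17, -0.88 and -1.24. For Elane the shares alone gave -0.89, -0.53 and -1.0 and the levels alone -0.42, -0.59 and -0.41. For Mpo the shares alone gave -0.63, -0.35 and -0.72 and the levels alone -0.39, -0.26 and -0.20. Prtn3 was at -0.62, -0.36 and -0.70 from the shares alone and -0.40, -0.43 and -0.32 from the levels alone. The split is of the mean UMIs over all cells, so it does not divide the level per expressing cell, and it was not tested. For S100a8 at 24 h the levels alone (-1.48) exceeded the shares alone (-0.76). The division depended on how clusters were drawn: with the 10 genes and the other neutrophil genes left in the clustering, shares alone gave -1.19, -0.84 and -1.16 and levels alone -0.12, -0.15 and -0.11.

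In control the genes were carried in nested sets of cells, counted here over the cells of all mice. Of 919 control cells that expressed Elane, 94.8% also expressed Prtn3, 90.2% Mpo, 79.0% Ms4a3, 35.6% Cebpe, 26.2% Prss57 and 13% S100a8, and of the 257 cells that expressed Prss57, 93.8% expressed Elane. All 119 S100a8-expressing control cells expressed Elane, and 14 of 16, 44 of 45 and 31 of 31 did at 3, 24 and 72 h. S100a8 also became rarer among Elane-expressing cells. It was expressed by 12.8%, 14.5%, 11.3% and 18.8% of the Elane-expressing cells of the control mice, 6.33%, 4.69%, 3.70% and 2.63% at 3 h, 3.87%, 5.34%, 4.52% and 6.70% at 24 h, and 5.70%, 4.35%, 7.04% and 6.96% at 72 h. The control mice were all above the treated mice (means 14.3% ± 3.21, 4.34% ± 1.57, 5.10% ± 1.22 and 6.01% ± 1.27, exact permutation p = 0.0286 at each time, n = 4), but without thinning the 3 h difference was -6.36 percentage points with an exact p of 0.0857. Cells expressing at least 6 of the 10 genes were 16.9% of control cells and 7.06%, 9.37% and 6.59% of cells at 3, 24 and 72 h, and cells expressing none were 24.3%, 36.8%, 29.9% and 34.0%.

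Most tested genes of 3 other lists were lower as well. These lists were chosen with earlier results of these data known. Of 12 tested genes of the primary granule and its handling, 11, 8 and 10 were lower and 0 higher by edgeR at 3, 24 and 72 h (medians -0.49, -0.26 and -0.37), beside the 19.2%, 13.8% and 18.5% of all tested genes that were lower and all-gene medians of -0.03, 0.00 and 0.02. Among them were Cst7, an inhibitor of cathepsins (-0.67, -0.48 and -0.85), and Hk3, a hexokinase of myeloid cells (-0.72, -0.47 and -0.72). Of 10 tested genes of the later granules, of 17 listed, 8, 7 and 9 were lower (medians -0.76, -0.58 and -1.16), against the same shares of all genes, led by Chil3, a chitinase-like protein (-2.60 ± 0.75, -3.42 and -4.44 ± 0.80), and Wfdc21, a small whey acidic protein (-1.25, -1.93 and -1.19). Chil3 was at 9.22 CPM in control mouse 1 and at 0.870 to 2.29 in the other control mice. Ifitm6, an interferon-induced transmembrane gene, was the 1 member of that list that rose, at 3 h (0.85 ± 0.18, edgeR adjusted p = 0.000539).

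Of 11 tested transcription factors and receptors of the lineage, 7, 10 and 7 were lower and 2, 0 and 0 higher (medians -0.44, -0.38 and -0.40), where 19.2%, 13.8% and 18.5% of all tested genes were lower and 19.7%, 14.5% and 18.9% higher. Fcgr3, a low-affinity Fc receptor used to sort granulocyte-monocyte progenitors, changed by -1.23, -0.58 and -0.98, and Irf8, the factor that favors monocytes over neutrophils, by -1.12, -0.68 and -0.59 on the log2 scale, all passing. Csf2rb, the shared β chain of cytokine receptors, rose at 3 h (0.86 ± 0.13) and was at -0.04 and -0.10 later, not passing (edgeR adjusted p = 0.822 and 0.578). Cebpb, a factor of emergency granulopoiesis, rose at 3 h (0.49) and was below control at 24 h (-0.41) and 72 h (-0.71), all passing by edgeR.

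As a description of which genes shared the pattern, log2 CPM was compared over the 14 control clusters for 7675 genes. Those most like Elane were Trem3 (Pearson's r 0.992), Anxa3 (0.971), Alas1 (0.968), B4galnt1 (0.960) and Igsf6 (0.959). Those most like S100a8 were Clec4a2 (0.886), Wfdc21 (0.881), Eno1 (0.873), G0s2 (0.871) and Atp6v1e1 (0.871). The clusters shared 1 library and its depth, and Trem3 was among the genes that led cluster 1.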

How the data were processed

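The libraries were droplet 3' RNA libraries of LK cells with added HSCs, 1 per time point with 4 hashed mice. The authors deposited raw UMI counts per gene and cell barcode, made with Cell Ranger 3.1.0 on mm10. They also deposited hashtag counts per barcode, a margin score between the best hashtags whose normalization is not stated, and Seurat's call of each barcode as a hashtag, a doublet or negative. The gene annotation release was not given in the sources used here. Coordinates come from a GENCODE annotation of the same build.

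Barcodes with 1 hashtag, at most 5% mitochondrial UMIs and at least 700 genes were kept. Doublets within a mouse carry 1 hashtag and remain, and no doublet caller was run. Counts were summed per mouse, or per mouse and cluster (at least 10 cells, at least 3 mice per group), and tested over all mice with edgeR 4.0.16 (R 4.3.3): filterByExpr, TMM, quasi-likelihood F test, Benjamini-Hochberg adjustment over all tested genes, adjusted p under 0.05. CPM are TMM-normalised. For shares and levels, cells were thinned to 5000 UMIs, which left out 199 cells (35, 61, 35 and 68 in control and at 3, 24 and 72 h). A level needed 5 expressing cells in a mouse. For shares and log2 levels, exact permutation tests over mice (two-sided) were used. Shares were adjusted over 30 values, and levels over those of the 30 that could be tested. Control cells were clustered in Scanpy 1.11.5 (Python 3.11.15, Leiden resolution 0.8), and labels were carried to the other libraries over 3262 genes without interferon-stimulated genes, by 15 neighbors after a correction on mutual neighbors. Clusters were named from marker lists. Scripts were tested on simulated data. DESeq2 1.42.0, other filters, scalings, thinning depths and left-out mice were the alternatives.

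Besides the 10 genes, the text names, of each other list, the 2 genes with the largest rise and fall among those passing against control, and the 5 genes most like Elane and S100a8. The genes and the lists were chosen with earlier results of these data known. Intervals and limits from counts of 0 cover counting error only. The p-values measure the spread between mice, with time point and library the same grouping.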

Additional observations from a re-analysis of the deposited data

Results flagged for a closer look

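In 6 of 126 groups of 4 mice, 1 mouse lay apart from the rest by Dixon's ratio of the gap to the range above its 95% critical value, and chance gives about 1 in 20. In control these were the Fcnb level (ratio 0.886), the share of Elane-expressing cells (0.863), the share of Prss57-expressing cells (0.911) and the share of cells in cluster 5 (0.874). For Fcnb, Elane and Prss57 the mouse was control mouse 4, which had 58 cells, at 1.74 CPM, 28.1% and 5.26%. At 3 h they were the S100a9 level (ratio 0.834), where mouse 2 was at 36.0 CPM, and the level per Cebpe-expressing cell (0.852). The part of the small number of cells in these values was not tested.

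Barcodes outside the kept cells also held transcripts of the 10 genes. Among barcodes with 1 hashtag and over 5% mitochondrial UMIs, S100a9 was at 39.6 CPM at 3 h (18 UMIs, 95% exact Poisson interval 23.5 to 62.5), against 9.43 in the same kind of barcode in control (9 UMIs, 4.31 to 17.9) and 11.1 in the kept 3 h cells. S100a8 in these barcodes was at 30.8 CPM at 3 h (16.8 to 51.6) and 40.9 in control (29.1 to 55.9), and Mpo at 10640 and 12770. Among barcodes with 1 hashtag and under 700 genes, Mpo was at 6874 CPM at 3 h (159 barcodes, 95% exact Poisson interval 6456 to 7312) and at 5645 in control (180 barcodes, 5304 to 6002), while in the kept cells it was at 1875 and 3734 CPM. So in these small barcodes Mpo was higher at 3 h than in control, the opposite order from the kept cells. Elane in the same barcodes was lower at 3 h (2045 against 2947 CPM), and in barcodes without a hashtag call Mpo was lower too (1510 against 5865 CPM). Each value comes from 1 library, so no order was tested there, and the mice were not separated.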

How the results depend on the processing

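Of 952 repeats of the 53 main results, 856 kept their direction and their side of the threshold or stayed within 1.5 times the main count, and of 3642 repeats of the 176 values of single genes 3376 did. Some of these repeats could not change. For differences of cluster shares, leaving out a mouse of a time point outside the comparison leaves the compared mice as they were. The myeloid progenitor-like share at 24 h thus differed by -4.07 points with and without 3 h mouse 1. Such repeats were not counted apart, so the counts of kept results overstate how far the results were tried. The whole-compartment count against control was 8 to 10 at 3 h and 10 at 24 and 72 h whichever mouse was left out. A fold limit of log2 1 left 5 genes at 3 h, 3 at 24 h and 0 from 24 to 72 h. At 72 h against control it left Elane, Prss57, Ms4a3, Cebpe, Fcnb, S100a8 and S100a9. The share of all tested genes past this limit was not set beside these counts. Mice with the same hashtag number shared an antibody, and whether they were otherwise related was not stated. Of 24 pairs of same-numbered mice, r ran from -0.064 to 0.111 with 2 over 0.1. A mouse of the own number correlated best for 10 of 16 mice, a count that was not set against chance. The exact permutation tests of shares and levels did not take the number into account. With the hashtag number as a replicate block, the count was 1 from 3 to 24 h and 0 from 24 to 72 h, and 9, 10 and 10 against control. DESeq2 gave 0 and 0 for these later steps, the likelihood ratio test and leaving out HSC-like cells 0 from 24 to 72 h, no low-count filter 4, and leaving out a mouse 0 to 2 and 0 to 3.

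Counts by cell group moved more. DESeq2 gave 1 gene in cluster 2 at 72 h, 0 in HSC-like cells at 72 h, 0 in LMPP-like cells at 3 and 24 h, and 1, 1 and 2 in MK-like cells. Without the low-count filter there were 7 in cluster 2 at 72 h, 2 and 2 in HSC-like cells at 3 and 72 h, 4, 5 and 1 in LMPP-like, 5 in MK-like at 24 h and 5 in erythroid-like at 3 h. Without correction between libraries there were 4 in cluster 1 and 1 in cluster 2 at 72 h, 2 in HSC-like at 3 h, 0 in LMPP-like at 3 and 24 h, and 4 and 1 in MK-like at 24 and 72 h. With the 10 genes left in the clustering there were 1, 1 and 2 in HSC-like, 2 in LMPP-like at 3 h, 2 in MK-like at 72 h and 3, 1 and 2 in erythroid-like cells. Leaving out a mouse gave 3 to 5 and 1 to 5 in cluster 2 at 3 and 72 h, 0 to 1 in HSC-like at 72 h, and 1 to 3 and 0 to 3 in LMPP-like at 3 and 24 h. The share of all tested genes that were lower under each alternative was not set beside these counts. With the main filter, 7 of the 10 genes were tested in cluster 2, HSC-like and LMPP-like cells, 5 in MK-like and 6 in erythroid-like cells. The number tested without the filter was not set beside its counts, so those counts and the main counts are not like for like. The causes of the differences were not tested. Leaving out HSC-like cells, and every alternative for S100a8 among Elane-expressing cells and for cluster 1 among myeloid progenitor-like cells, was chosen after seeing the data.

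Left-out mice moved the counts of lower shares to 0 to 10 at 3 h, 0 to 9 at 24 h and 0 to 9 at 72 h. The difference of the myeloid progenitor-like share at 3 h was -10.2 to -7.11 points (-4.88 without HSC-like cells, exact p 0.0571), of cluster 1 -8.96 to -7.32, and of cluster 1 among myeloid progenitor-like cells -22.6 to -17.1. With the 10 genes left in, the myeloid progenitor-like share at 24 h differed by -9.24 points, and the medians were -1.19, -0.835 and -1.16 from shares alone and -0.119, -0.147 and -0.113 from levels alone. Without thinning, S100a8 among Elane-expressing cells at 3 h differed by -6.36 points. Values whose sign changed, not called in the setting where it did, were S100a8 in cluster 1 at 3 h (-0.57 without 3 h mouse 2, up to 0.70 without 3 h mouse 4), S100a9 there (0.10 by DESeq2, 0.31 without control mouse 3, 0.17 without 3 h mouse 1, down to -2.10 without 3 h mouse 2, which was called), Ms4a3 in cluster 2 at 3 h (-0.0612 without control mouse 1, 0.157 without control mouse 2), Prss57 in cluster 2 at 24 h (-0.158 without control mouse 1, 0.192 without control mouse 2, -0.00187 without correction), the share of Prtn3 at 24 h (1.31 points without thinning) and the S100a8 level at 24 h (0.0679 thinned to 3000 UMIs).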
